A study of Mus musculus with 6 samples.

Results

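The genes described here fold, check, export and survey the proteins that pass through the endoplasmic reticulum (ER) of intestinal crypt cells. They were chosen by gene symbol as ER chaperones and disulfide isomerases, ER-associated degradation factors, ER stress sensors, translocation factors and COPII coat proteins. Of 41 listed genes, 39 were measured, each by 1 probe set, among 19505 genes in all, and Manf and Pdia4 were not analysed here. The samples were 6 preparations of small intestinal crypts from mice on a C57bl/6 background, 3 of the genotype CSN8fl/fl and 3 of the genotype CSN8ΔIEC. CSN8fl/fl animals carry loxP sites around Cops8, the gene of COP9 signalosome subunit 8, and the name CSN8ΔIEC stands for its loss in intestinal epithelial cells. The labels do not name the promoter that drives the deletion. In each genotype, replicates 1 and 2 were labelled as females aged 16 weeks and replicate 3 as a male aged 10 weeks. The stated aim was to learn whether the deficiency disturbs antimicrobial peptide production, which takes place in secretory cells rich in ER.

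A protein destined for secretion enters the ER through the Sec61 channel, loses its signal peptide, is folded with the help of chaperones such as BiP (Hspa5), and leaves in vesicles coated by COPII. Chains that do not fold are pulled back to the cytosol and degraded, a process called ER-associated degradation. When unfolded protein builds up, the sensors IRE1 (Ern1 and, in mucus-secreting epithelia, Ern2), ATF6 and PERK (Eif2ak3) start the unfolded protein response, in which the transcription factors XBP1, ATF6 and ATF4 raise the genes of folding, degradation and export. Paneth and goblet cells of the crypt depend on this machinery for their granules and mucus.

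Many genes of the response carry the ER stress response element (ERSE) in their promoters, which is CCAAT, any 9 bases and CCACG, read on either strand. Promoters from 250 bases before to 50 bases after the start site were available from RefSeq (GRCm38.p6) for 32 of the 39 genes. An ERSE was present in 9 of the 32, or 28.1%, against 37 of all 27025 genes with a promoter, or 0.137% (39 of 32851 promoters, 0.119%). The table had no entry for Hyou1, Derl1, Ern2, Atf6, Sec61a1, Sec11c and Ssr2. The matches are shown because this element was more frequent among the members than among all genes, although known targets of the response such as Dnajb9, Edem1 and Sdf2l1 held none in this window. They are written 5′ to 3′ as the motif reads, with the fixed bases in capitals.
Hspa5, chr2:34772025-34772043, plus strand: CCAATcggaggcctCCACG
Hsp90b1, chr10:86705638-86705656, minus strand: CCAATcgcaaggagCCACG
Hsp90b1, chr10:86705533-86705551, plus strand: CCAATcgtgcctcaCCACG
Calr, chr8:84847075-84847093, plus strand: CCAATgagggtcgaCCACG
Canx, chr11:50325800-50325818, minus strand: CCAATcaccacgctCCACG
Pdia6, chr12:17266491-17266509, plus strand: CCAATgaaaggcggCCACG
Dnajc3, chr14:118937827-118937845, plus strand: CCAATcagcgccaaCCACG
Creld2, chr15:88819520-88819538, minus strand: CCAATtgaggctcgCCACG
Derl3, chr10:75893242-75893260, minus strand: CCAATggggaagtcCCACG
Syvn1, chr19:6046532-6046550, plus strand: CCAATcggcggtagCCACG

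The Hsp90b1 promoter held 2 matches and the others 1 each, with the first base between 44 bases (Syvn1) and 212 bases (Hsp90b1) before the start site. A match is a description of letters and does not show a bound site. ERSE-II (ATTGG, any 1 base, CCACG, on either strand) was found in Dnajb11 and Herpud1, 2 of 32 members against 0.0444% of all genes. The element TGACGTGG, known as UPRE and searched on both strands, was found in Sec24d alone, 1 of 32 against 0.714% of all genes. The whole Hspa5 promoter, GRCm38.p6 chr2:34771840-34772139 on the plus strand, is given with the fixed bases of its ERSE in capitals.
Hspa5 promoter: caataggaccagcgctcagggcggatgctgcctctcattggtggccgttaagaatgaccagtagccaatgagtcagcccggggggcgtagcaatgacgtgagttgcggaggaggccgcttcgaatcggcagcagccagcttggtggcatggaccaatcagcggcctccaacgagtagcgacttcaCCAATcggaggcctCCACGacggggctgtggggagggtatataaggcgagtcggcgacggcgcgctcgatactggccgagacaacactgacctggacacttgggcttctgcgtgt

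Signals are log2 values, 1 array per sample, and every difference is CSN8ΔIEC minus CSN8fl/fl on the log2 scale ± SE. Adjusted p-values come from limma's moderated linear model with Benjamini-Hochberg adjustment over all 19505 genes, and a gene is said to rise or fall only below an adjusted p of 0.05. The labels do not say that each sample came from a separate mouse, so the p-values measure no more than sample-to-sample spread, which can be partly technical. Pearson correlations between arrays over all probe sets ran from 0.976 to 0.993, and the array of CSN8fl/fl replicate 3 had the lowest (0.976 to 0.986). Cops8 read 8.26, 8.22 and 8.10 in CSN8fl/fl and 7.68, 7.61 and 7.77 in CSN8ΔIEC, a difference of −0.50 ± 0.11 (adjusted p = 0.0865). Whether its probes lie within the deleted part is not known here, so this signal is a limited check of the labels. Crypt markers were well represented. No marker of Paneth, goblet, tuft, enteroendocrine or stem cells or of enterocytes averaged below 5.35, the level under which the dimmest 30% of genes lie. Of markers of other cells, 3 of 4 endothelial and 4 of 7 pancreatic acinar markers did. So did 2 of 7 stromal and muscle, 2 of 7 plasma and B cell and 1 of 5 myeloid markers. Of the T cell and intraepithelial lymphocyte markers 0 of 8 did, so markers of other cells were not all dim.

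None of the 39 ER genes passed the threshold between the genotypes, against 1.08% of all genes. At an unadjusted p under 0.05, 3 of 39 members were lower (8.01% of all genes) and 0 higher (6.95% of all genes) in CSN8ΔIEC, 15.0% of all genes being under it in either direction (limma). The members' differences ran from −0.74 to 0.39 with a median of −0.032, and the median over all genes was −0.011. The members' median turned to 0.036 when CSN8fl/fl replicate 1 was left out and was −0.083 without CSN8fl/fl replicate 3, where 13 differences were above 0 and 26 below. Of the 39 differences 18 were above 0 and 21 below, and over all 19505 genes 9396 were above and 10109 below. No member differed by as much as 1 on the log2 scale, which is 2-fold, and only 258 of all 19505 genes differed by more. The 95% interval of the difference lay inside a 2-fold change either way for 38 of the 39, all but Dnajb9. Most genes of the array were alike in this, at 18469 of 19505. Without CSN8fl/fl replicate 3 the count was again 0, and over all 14 alternative fits it stayed at 0. The lowest adjusted p that any member reached in those fits was 0.0906, for Hyou1 without CSN8fl/fl replicate 1.

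**Figure D1:**
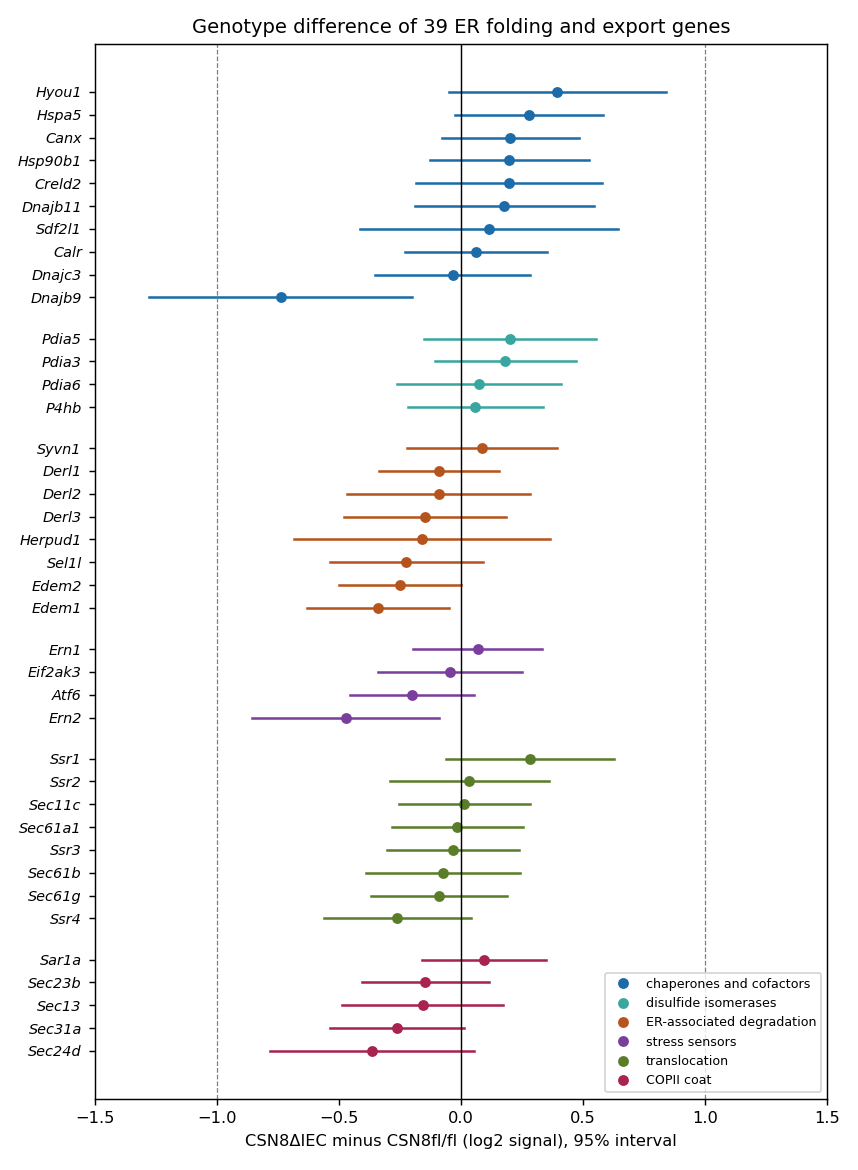
Genotype difference of each of the 39 ER genes, CSN8ΔIEC minus CSN8fl/fl in log2 signal, with 3 arrays per genotype; points are differences, lines are 95% intervals from limma, colours are roles, and dashed lines mark a 2-fold change. The intervals of Dnajb9, Ern2 and Edem1 lie wholly below 0, unadjusted for the number of genes tested, and only that of Dnajb9 crosses the 2-fold line.

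In 12 of the 39 genes, or 3 above and 9 below, the CSN8ΔIEC and CSN8fl/fl values did not overlap. This happened in 22.4% of all genes, 10.7% with CSN8ΔIEC above and 11.7% with it below. The 12 were Canx, Ssr1 and Sar1a above, and Dnajb9, Edem1, Edem2, Derl1, Ern2, Atf6, Ssr4, Sec31a and Sec23b below.

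Of the 10 genes of chaperones and their cofactors, 8 had differences above 0, against 9396 of all 19505 genes, and 0 passed the threshold. These genes share each array, so the 8 are not independent readings. The same holds for the counts by direction of the other roles and lists below. Their median difference was 0.19. Leaving out CSN8fl/fl replicate 1 gave 0.32, and leaving out CSN8fl/fl replicate 3 gave 0.10, where 6 of 10 were above 0. Hspa5 encodes BiP, the Hsp70 of the ER and the master chaperone that also holds the sensors inactive. It read 13.22, 12.84 and 12.91 in the 3 CSN8fl/fl arrays and 13.30, 13.31 and 13.19 in CSN8ΔIEC. The lowest CSN8ΔIEC value lay just under the highest CSN8fl/fl value, so the groups overlapped, with a difference of 0.28 ± 0.13 (95% interval −0.025 to 0.58, adjusted p = 0.374). Hyou1, a large Hsp70 that releases nucleotide from BiP, read 11.49, 10.95 and 10.66 in CSN8fl/fl and 11.46, 11.43 and 11.39 in CSN8ΔIEC. The CSN8ΔIEC arrays were close together and at the level of the highest CSN8fl/fl array. The difference was 0.39 ± 0.20 (adjusted p = 0.393), or 0.21 without CSN8fl/fl replicate 3.

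Canx encodes calnexin, the membrane lectin that holds glycoproteins until they fold. Its signals of 11.69, 11.67 and 11.42 in CSN8fl/fl all lay below those of 11.77, 11.88 and 11.73 in CSN8ΔIEC. The difference of 0.20 ± 0.12 did not pass (adjusted p = 0.481) and was 0.12 without CSN8fl/fl replicate 3. Calr, which encodes the soluble partner lectin calreticulin, differed by 0.061 ± 0.13, and its groups overlapped. Hsp90b1 encodes GRP94, the Hsp90 of the ER, and read 12.55, 12.24 and 12.07 against 12.51, 12.52 and 12.43. The 3 CSN8ΔIEC values sat inside the range of the CSN8fl/fl values (difference 0.20 ± 0.14, adjusted p = 0.553). Creld2, Dnajb11 and Sdf2l1, which are luminal helpers of folding, differed by 0.20 ± 0.17, 0.18 ± 0.16 and 0.11 ± 0.23. Dnajc3, a J-domain protein that binds unfolded chains, differed by −0.034 ± 0.14.

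Dnajb9 had the lowest difference of the chaperone genes. It encodes ERdj4, a J-domain partner of BiP that is a classical target of the IRE1 and XBP1 arm and restrains IRE1. Dnajb9 read 10.03, 9.43 and 10.35 in CSN8fl/fl and 9.40, 9.33 and 8.88 in CSN8ΔIEC. All 3 CSN8ΔIEC values were below the lowest CSN8fl/fl value, but by little for replicates 1 and 2. The difference of −0.74 ± 0.24, or 1.67-fold, was the largest of the 39 and did not pass the threshold (adjusted p = 0.197, 95% interval −1.28 to −0.20). Leaving out CSN8fl/fl replicate 2 gave −0.99, and leaving out CSN8fl/fl replicate 3 gave −0.53. Between the labelled females the difference was −0.37, and between the labelled males −1.48.

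The 4 protein disulfide isomerases measured, which form and rearrange disulfide bonds, had differences above 0 in 4 of 4 and a median of 0.13 (0.23 without CSN8fl/fl replicate 1, and 0.067 with 3 of 4 above 0 without CSN8fl/fl replicate 3). Pdia3, which works with calnexin and calreticulin on glycoproteins, read 11.96, 11.77 and 11.61 in CSN8fl/fl and 11.90, 12.03 and 11.95 in CSN8ΔIEC. The groups overlapped through CSN8fl/fl replicate 1 (difference 0.18 ± 0.13, adjusted p = 0.539). Pdia5 read 8.49, 8.43 and 8.08 against 8.56, 8.33 and 8.71, again with overlap (0.20 ± 0.16, adjusted p = 0.582). P4hb, the founding member of the family, was nearly level in CSN8fl/fl at 11.89, 11.90 and 11.90 and read 11.91, 12.13 and 11.82 in CSN8ΔIEC. Its difference was 0.059 ± 0.12, and that of Pdia6 was 0.073 ± 0.15.

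Genes of ER-associated degradation lay mostly on the other side of 0. Of 8, 7 had differences below 0 and none passed the threshold, with a median of −0.15. The share of all genes with a difference below 0 was 51.8%. Edem1 and Edem2 encode mannosidase-related proteins that act on misfolded glycoproteins. Edem1 read 10.85, 10.67 and 10.54 in CSN8fl/fl and 10.38, 10.42 and 10.23 in CSN8ΔIEC. The groups did not overlap, and the difference was −0.34 ± 0.13 (95% interval −0.63 to −0.050, adjusted p = 0.264). Edem2 read 9.74, 9.65 and 9.67 against 9.50, 9.37 and 9.43, also without overlap (−0.25 ± 0.11, adjusted p = 0.334).

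Sel1l and Syvn1 encode the scaffold and the ubiquitin ligase (HRD1) of the central degradation complex. Sel1l read 9.36, 9.18 and 9.62 in CSN8fl/fl and 9.13, 9.21 and 9.14 in CSN8ΔIEC, with overlap at CSN8fl/fl replicate 2 (−0.22 ± 0.14, adjusted p = 0.483). Without CSN8fl/fl replicate 3, which was the highest, the Sel1l difference was −0.11. Syvn1 was the only gene of this role with a difference above 0, at 9.36, 9.03 and 9.23 against 9.43, 9.30 and 9.15 (0.086 ± 0.14, adjusted p = 0.803). Herpud1, which encodes a membrane organiser of the complex and is strongly stress-inducible, scattered within both groups. It read 11.24, 10.46 and 11.30 in CSN8fl/fl and 11.04, 10.56 and 10.92 in CSN8ΔIEC (−0.16 ± 0.23, adjusted p = 0.787). Replicate 2 was the lowest array of each genotype for this gene. The derlins, channel components of retrotranslocation, differed by −0.091 (Derl1), −0.092 (Derl2) and −0.15 (Derl3).

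Of the 4 stress sensors, 3 had differences below 0 and the median was −0.12. Ern2, the IRE1 paralogue (IRE1β) of mucus-secreting epithelia, read 8.65, 8.75 and 8.81 in CSN8fl/fl and 8.21, 7.97 and 8.62 in CSN8ΔIEC. Every CSN8ΔIEC value was lower than every CSN8fl/fl value, with replicate 3 of CSN8ΔIEC close to the controls. The difference was −0.47 ± 0.17, or 1.39-fold (95% interval −0.85 to −0.089, adjusted p = 0.242, between 0.164 and 0.504 over the alternatives). Ern1, the IRE1 present in most cells, read 9.36, 9.48 and 9.25 against 9.46, 9.36 and 9.48, and its groups overlapped (0.068 ± 0.12, adjusted p = 0.821).

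Atf6, which is cut in the Golgi to free a transcription factor, read 9.37, 9.41 and 9.55 in CSN8fl/fl and 9.24, 9.24 and 9.26 in CSN8ΔIEC. The groups did not overlap, and the difference was small (−0.20 ± 0.11, adjusted p = 0.447). Eif2ak3, the kinase PERK that slows translation, read 10.13, 9.83 and 9.93 against 9.81, 10.06 and 9.88 (−0.046 ± 0.13, adjusted p = 0.895). Its difference was 0.036 without CSN8fl/fl replicate 1, so its direction was not settled.

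Translocation genes had a median of −0.023 over 8, with 3 differences above 0 and 0 genes past the threshold. The sign of the median was not settled, at 0.022 when CSN8fl/fl replicate 1 was left out and −0.095 when CSN8fl/fl replicate 3 was. The channel genes Sec61a1, Sec61b and Sec61g differed by −0.015, −0.073 and −0.090, and the signal peptidase gene Sec11c by 0.013. The TRAP complex, which assists the channel with certain signal peptides, split over its subunits. Ssr1 read 11.54, 11.42 and 11.01 in CSN8fl/fl and 11.65, 11.59 and 11.57 in CSN8ΔIEC, with every CSN8ΔIEC value above the controls (0.28 ± 0.15, adjusted p = 0.425). CSN8fl/fl replicate 3 was the lowest array, and the Ssr1 difference was 0.13 without it. Ssr4 read 10.23, 10.49 and 10.12 against 10.06, 9.93 and 10.08, with every CSN8ΔIEC value below (−0.26 ± 0.13, adjusted p = 0.404). Ssr2 read 12.17, 12.25 and 11.81 against 12.20, 12.07 and 12.06 (0.034 ± 0.14), and Ssr3 differed by −0.032 ± 0.12.

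COPII coat genes had differences below 0 in 4 of 5 and a median of −0.16. Sec24d, a cargo-binding subunit of the inner coat, read 10.05, 9.69 and 10.30 in CSN8fl/fl and 9.61, 9.90 and 9.44 in CSN8ΔIEC. The groups overlapped (−0.36 ± 0.18, adjusted p = 0.400), and the difference was −0.22 without CSN8fl/fl replicate 3. Sec31a, of the outer coat, read 11.15, 11.08 and 11.33 against 10.98, 10.97 and 10.84, with no overlap (−0.26 ± 0.12, adjusted p = 0.357). Sar1a, the GTPase that starts coat assembly, read 10.83, 10.84 and 10.68 against 10.91, 10.86 and 10.86 (0.094 ± 0.11, adjusted p = 0.733). Sec23b and Sec13 differed by −0.15 and −0.16.

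**Figure D2:**
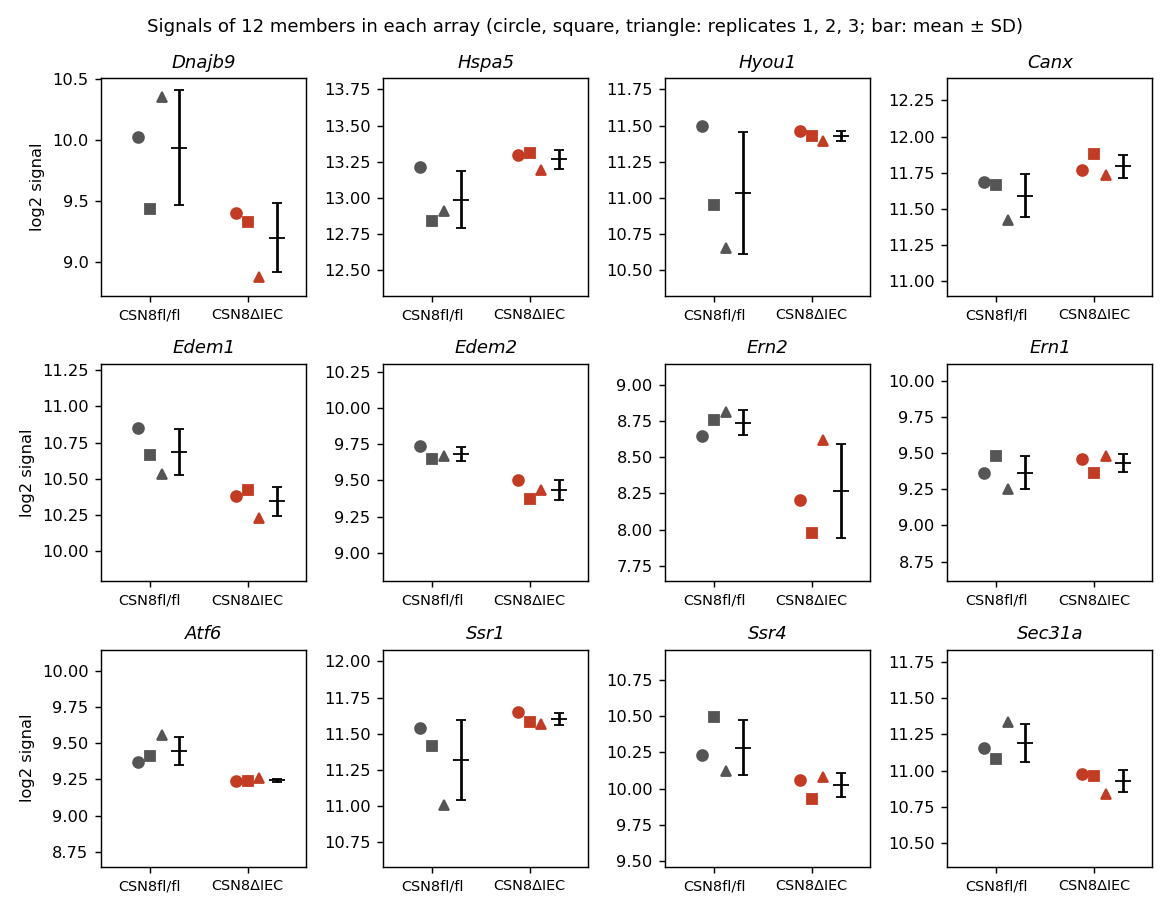
Log2 signal of 12 of the 39 ER genes in each array (grey, 3 CSN8fl/fl; red, 3 CSN8ΔIEC; circle, square and triangle are replicates 1, 2 and 3), with the mean ± SD beside each group and a separate vertical scale per gene. The groups do not overlap for Dnajb9, Canx, Edem1, Edem2, Ern2, Atf6, Ssr1, Ssr4 and Sec31a, and they overlap for Hspa5, Hyou1 and Ern1.

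Array by array, the roles differed by less than the Paneth cell markers did. That marker list was chosen with earlier results of these data known, so it is no neutral yardstick. As the mean over the 10 chaperone genes of each gene's deviation from its mean over the 6 arrays, the CSN8fl/fl arrays lay at 0.22, −0.16 and −0.19 and the CSN8ΔIEC arrays at 0.098, 0.12 and −0.088. CSN8fl/fl replicate 1 was thus the highest array of all for these genes, and the genotypes overlapped. It was the highest CSN8fl/fl array for 9 of the 10 chaperone genes, against 29.5% of all genes. CSN8ΔIEC replicate 3 was the lowest CSN8ΔIEC array for 10 of the 10, against 34.4% of all genes. The 10 genes share each array and are not independent readings. The translocation genes were lowest in CSN8fl/fl replicate 3 for 7 of 8, against 7611 of all 19505 genes. Levels of the stress sensors did not overlap, at 0.080, 0.073 and 0.090 in CSN8fl/fl and −0.12, −0.14 and 0.012 in CSN8ΔIEC. Those of the coat genes did not overlap either, at 0.10, 0.014 and 0.13 against −0.053, −0.013 and −0.18. The genotypes overlapped for disulfide isomerases, degradation genes and translocation genes. These levels were not tested.

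**Figure D3:**
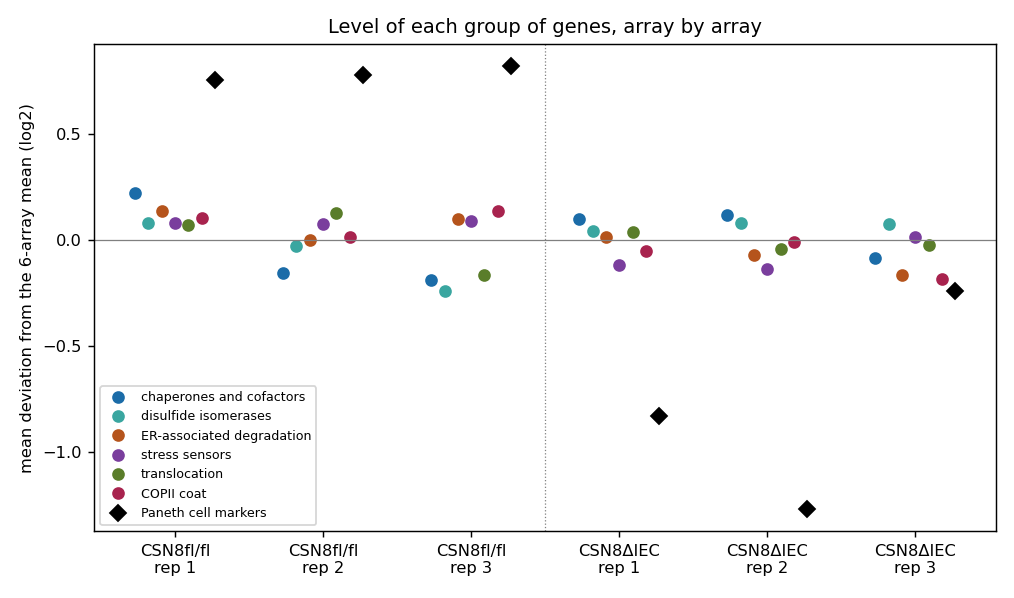
Mean deviation of the genes of each role from their 6-array mean, in log2 units, for each array, with the 14 Paneth cell markers as black diamonds. The ER roles stay between −0.24 and 0.22 in all 6 arrays, while the Paneth cell markers lie between 0.75 and 0.82 in CSN8fl/fl and between −1.27 and −0.24 in CSN8ΔIEC.

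Markers of several crypt cell types differed in the same arrays, and not all in 1 direction. The list of 14 Paneth cell markers had 8 that fell and 0 that rose, a median difference of −1.46, and a mean log2 signal of 12.41 to 12.48 in CSN8fl/fl and 10.39 to 11.42 in CSN8ΔIEC. Of 11 goblet cell markers 4 fell and 0 rose (median −0.40; mean signal 11.93 to 11.99 against 11.41 to 11.59), and of 8 tuft cell markers 4 fell and 0 rose (median −1.98; 7.93 to 9.35 against 6.49 to 6.72). Of 10 enteroendocrine markers 2 rose (Tac1 by 1.41 and Cck by 0.79) and 1 fell (Sst, by 1.10), with a median of 0.21 and mean signals of 8.23 to 8.30 against 8.41 to 8.54. Enterocyte markers gave 0 of 10 past the threshold, with a median of −0.11 and mean signals of 12.37 to 12.80 against 12.13 to 12.67. Their median was 0.019 without CSN8fl/fl replicate 3. Stem cell markers gave 0 of 5, with a median of 0.40 and 4 differences above 0. Without CSN8fl/fl replicate 3 the stem cell median was 0.17, with 3 above 0. Of 7 stromal and muscle markers 1 rose (Acta2, by 0.66, from a CSN8fl/fl mean of 5.19) and 0 fell. T cell and intraepithelial lymphocyte markers gave 0 of 8 (median −0.28, or 0.0080 without CSN8fl/fl replicate 3) and myeloid markers 0 of 5 (median 0.058). Endothelial markers gave 0 of 4 and pancreatic acinar markers 0 of 7. Of the markers that rose or fell, Ang4, Clps, Ccl6 and Tac1 passed in all 14 alternative fits. The calls of the other markers were each lost in some of these fits. Plasma cells are also rich in ER. Of 7 plasma and B cell markers 0 passed, with mean signals of 5.33 to 6.43 against 6.05 to 6.13, and its genes differed in direction. Jchain, the joining chain of secreted antibody, read 6.13, 6.30 and 4.50 in CSN8fl/fl and 7.14, 6.56 and 7.77 in CSN8ΔIEC, every value above the controls, without passing (1.51 ± 0.46, adjusted p = 0.181). Cd79a, of the B cell receptor, differed by −0.64 ± 0.45 (adjusted p = 0.534). Without CSN8fl/fl replicate 3 the Cd79a difference was −1.28 and passed (adjusted p = 0.0112, limma). The Jchain difference was 0.94 without that array and did not pass (adjusted p = 0.256). Tnfrsf17 and Mzb1 averaged below 5.35. In bulk crypt RNA, fewer cells of a type and less RNA per cell cannot be told apart, and the part of these cell types in the ER gene signals was not tested.

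Members were also set apart by the ERSE. Of the 9 with a match, 7 had differences above 0, with a median of 0.086 and a range of −0.15 to 0.28. Hspa5, Hsp90b1, Calr, Canx, Dnajc3 and Creld2 among them are also chaperone genes, so this grouping partly repeats that of the chaperones. The 23 members with a promoter and no match had 8 above 0, a median of −0.090 and a range of −0.74 to 0.28. The 7 members without a promoter entry, Hyou1 with the highest difference of the 39 among them, were in neither set. Without CSN8fl/fl replicate 3, 5 of the 9 and 7 of the 23 were above 0. No gene of either set passed the threshold, and the difference between the sets was not tested. Over all 28 measured genes with an ERSE, 12 differences were above 0, the median was −0.030 and 1 gene passed, Ero1b.

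The remaining machinery was followed in 5 further lists of 107 genes. Of these 0 rose (background 0.374%) and 2 fell (background 0.702%), with a median of −0.060. Bhlha15, in the list of transcription factors, encodes MIST1, which builds the secretory apparatus of exocrine cells. It read 7.95, 7.63 and 7.61 in CSN8fl/fl and 6.47, 5.57 and 6.46 in CSN8ΔIEC. The groups were far apart, and Bhlha15 fell by 1.57 on the log2 scale, or 2.97-fold (SE 0.24, adjusted p = 0.0223). The call was lost without CSN8fl/fl replicate 1, 2 or 3 (adjusted p = 0.052, 0.0654 and 0.0573) or CSN8ΔIEC replicate 1 (0.0558), with differences between −1.72 and −1.27 when any 1 array was left out.

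Ero1b encodes an ER oxidase that recharges the disulfide isomerases and is known from secretory cells such as those of the pancreas. It read 7.90, 7.97 and 8.30 in CSN8fl/fl and 6.94, 6.93 and 6.87 in CSN8ΔIEC. All CSN8ΔIEC values lay below all controls, and Ero1b fell by 1.14 on the log2 scale, or 2.20-fold (SE 0.13, adjusted p = 0.0097). The call was lost without CSN8ΔIEC replicate 1 (adjusted p = 0.0514) and held in the other 13 alternatives. Of the 107 genes 90 had a promoter, and Ero1b was the 1 with an ERSE. It is shown with the fixed bases of the element in capitals, on the reverse strand of the gene, from GRCm38.p6 chr13:12565633-12565932, plus strand.
Ero1b promoter: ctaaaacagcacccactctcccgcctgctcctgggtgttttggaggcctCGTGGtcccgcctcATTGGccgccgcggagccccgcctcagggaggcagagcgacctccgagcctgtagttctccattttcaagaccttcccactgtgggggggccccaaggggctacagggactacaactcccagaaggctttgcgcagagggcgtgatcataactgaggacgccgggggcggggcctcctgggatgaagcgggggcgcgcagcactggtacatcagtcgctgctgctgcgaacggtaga

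The paralogue Ero1a, chosen after its values were seen, read 10.29, 10.39 and 10.72 in CSN8fl/fl and 11.02, 10.79 and 10.76 in CSN8ΔIEC. Its values were higher in every CSN8ΔIEC array, without passing (0.39 ± 0.15, adjusted p = 0.271). Within each array the gap of Ero1b to Ero1a was −2.42 ± 0.016 in CSN8fl/fl and −3.94 ± 0.12 in CSN8ΔIEC (mean ± SD, n = 3), a difference of −1.53. The gap of Ern2 to Ern1 differed by −0.54, that of Ssr4 to Ssr1 by −0.54 and that of Sec61a1 to its paralogue Sec61a2 by −0.48. These 4 pairs were chosen because their values had been seen to differ, so the gaps are given as a description, without a p-value.

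Besides Bhlha15, the transcription factors and activators had 0 of 11 past the threshold. Xbp1, the central factor of the IRE1 arm, read 11.47, 11.40 and 11.38 against 11.54, 11.52 and 11.39 (0.066 ± 0.11, adjusted p = 0.816). Its total signal does not separate the spliced from the unspliced message. Creb3l2, a membrane-bound relative of ATF6, differed by −0.67 ± 0.26 (adjusted p = 0.282), or −0.34 without CSN8fl/fl replicate 3. Ddit3 encodes CHOP, the stress factor downstream of PERK, and read 8.81, 8.65 and 9.28 against 8.56, 8.38 and 8.53 (−0.42 ± 0.17, adjusted p = 0.289). All CSN8ΔIEC values were below all controls, and the difference was −0.24 without CSN8fl/fl replicate 3.

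**Figure D4:**
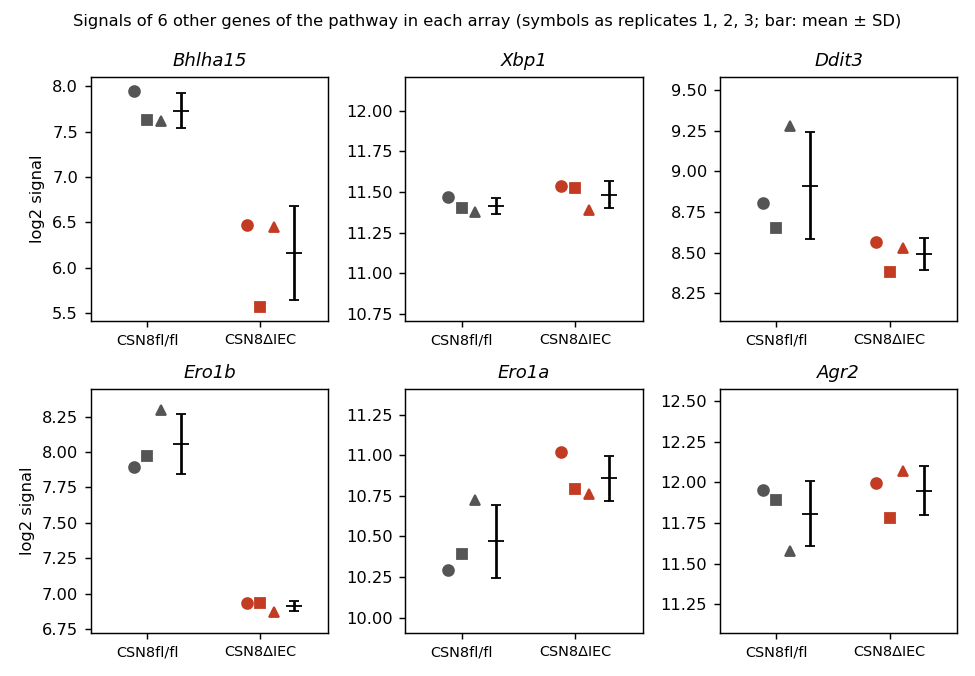
Log2 signal of 6 further genes of ER protein handling in each array (grey, 3 CSN8fl/fl; red, 3 CSN8ΔIEC; symbols are replicates 1, 2 and 3), with mean ± SD and a separate vertical scale per gene. Bhlha15 and Ero1b are lower in all 3 CSN8ΔIEC arrays and passed the threshold, while Xbp1, Ddit3, Ero1a and Agr2 did not.

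In the list of other folding enzymes, 1 of 27 passed, Ero1b. Agr2, the isomerase that mucin folding in goblet cells requires, differed by 0.14 ± 0.14 (adjusted p = 0.681). Its relative Agr3 and the prolyl isomerase Fkbp7 differed by 0.53 ± 0.14 and 0.71 ± 0.21 (adjusted p = 0.136 and 0.175), with all CSN8ΔIEC values above the controls. The list of further degradation genes had 14 of 17 differences below 0 and 0 past the threshold, led by the lectin gene Erlec1 (−0.35 ± 0.12, adjusted p = 0.230) and the ubiquitin ligase gene Rnf185 (−0.30 ± 0.12, adjusted p = 0.301). Ngly1, which strips glycans from retrotranslocated proteins, differed by −0.28 ± 0.13 (adjusted p = 0.367).

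Of the 29 further translocation and glycosylation genes 0 passed, and the median was 0.024. Sec61a2, the second channel gene, read 9.19, 9.17 and 9.01 in CSN8fl/fl and 9.49, 9.59 and 9.66 in CSN8ΔIEC, every value above the controls (0.46 ± 0.12, adjusted p = 0.115). Sec62, which helps short chains into the channel, differed by −0.22 ± 0.11 (adjusted p = 0.382), and Stt3b, a catalytic subunit of the oligosaccharyltransferase, by 0.27 ± 0.14 (adjusted p = 0.398). Of the 22 further coat, cargo receptor and retrieval genes 0 passed, with a median of −0.073. The genes of this list nearest to the threshold were Tmed3, a p24 cargo adaptor (−0.51 ± 0.13, adjusted p = 0.118), Sec16b, of ER exit sites (−0.52 ± 0.18, adjusted p = 0.230), and Kdelr3, a receptor that returns escaped chaperones (−0.37 ± 0.15, adjusted p = 0.295).

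The genotype difference could be set side by side in the labelled females of 16 weeks (2 arrays per genotype) and the labelled males of 10 weeks (1 array per genotype). The members' median was −0.048 in the females and −0.045 in the males. Chaperones lay at 0.13 and 0.28, disulfide isomerases at 0.044 and 0.35, degradation genes at −0.071 and −0.27, and coat genes at −0.11 and −0.26. Stress sensors lay at −0.097 and −0.12, and translocation genes at −0.084 and 0.16, on opposite sides of 0. For 0 of the 39 members did the interaction of genotype with labelled sex and age pass (lowest adjusted p = 0.435, for Dnajb9), as for 0.0% of all genes. At an unadjusted p under 0.05 there were 2 members, Dnajb9 and Pdia5, against 10.1% of all genes (limma). Sex and age change together in these labels and cannot be told apart, and the spread in this fit came from the females alone.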

How the data were processed

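RNA of 6 crypt preparations was labelled with the Affymetrix WT PLUS kit, per the labels' protocols. The deposited values are log2 signals per probe set, which per the submitters' processing notes the authors made by RMA, with Partek 6.6. The sources used here give neither settings nor genome build. Arrays have no read depth, and their number limits the precision. Of 22206 probe sets, 19572 had 1 gene symbol in the platform annotation, 0 several and 2634 none, and all 19572 gene IDs matched the RefSeq gene table (GRCm38.p6). For 55 genes with several probe sets the brightest on average was used, which left 19505 genes. Genotypes were compared with limma 3.58.1 (R 4.3.3; lmFit, then eBayes, 8.85 degrees of freedom), and the fit was tested on simulated data. The members and lists were chosen with earlier results of these data known. Per-array values are given for the 16 members with the smallest p, the sensors, and the extremes of each role, and of the other lists for genes past the threshold, the leading 3 by p, Xbp1 and Agr2. Alternatives were a replicate block, a term for sex and age, a filter on dim genes, other variance, weight and scaling choices, and each array left out. Protein ends, planned as a further feature, were not analysed here.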

Additional observations from a re-analysis of the deposited data

How the results depend on the processing

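The count of members past the threshold was 0 higher and 0 lower under all 14 alternatives. When 1 array was left out, the median over the members ran from −0.083 to 0.036, over chaperones from 0.10 to 0.32, over disulfide isomerases from 0.067 to 0.23, over degradation genes from −0.21 to −0.12, over sensors from −0.16 to −0.096, over translocation genes from −0.095 to 0.022 and over coat genes from −0.21 to −0.15. With the replicate block, 202 genes passed in place of 210 and 0 members, and the blocked Ero1b and Bhlha15 calls held (adjusted p = 0.0207 and 0.0169); same-numbered arrays correlated at 0.117, −0.024 and 0.038 in their deviations from the group means, and 1 of 3 CSN8fl/fl arrays correlated best with its own number, so the numbers were not taken as pairs. The 12 members without overlap were 12 to 21 when 1 array was left out, and the 21 came without CSN8fl/fl replicate 1, where 35.5% of all genes did not overlap. With fewer samples, groups fail to overlap more often by construction. The difference changed sign in 14 of 39 members when 1 array was left out, the largest of which was 0.11 with all arrays: Syvn1, Derl2, Sdf2l1 (−0.13 to 0.31), Calr, Dnajc3, Pdia6, P4hb, Eif2ak3, Sec61g, Sec61b, Ssr3, Ssr2, Sec61a1 and Sec11c. Ssr2 was −0.019 with array weights, and when 1 array was left out Ssr2 ranged from −0.10 to 0.12, Eif2ak3 from −0.12 to 0.036, P4hb from −0.029 to 0.12 and Syvn1 from −0.0041 to 0.16. Counts over all genes ran from 41 without CSN8ΔIEC replicate 1 to 298 with a trended and robust prior, or 297 with dim genes filtered out. Centring moved the median of all genes from −0.011 to 0.021.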

Other observations

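The ER genes varied more among the CSN8fl/fl arrays than among the CSN8ΔIEC arrays. The SD was larger in CSN8fl/fl for 33 of the 39 members, or 84.6%, against 62.3% of all genes, and for 10 of 10 chaperone genes and 5 of 5 coat genes. The median SD of the members was 0.185 in CSN8fl/fl and 0.078 in CSN8ΔIEC, and over all genes 0.175 and 0.134. For the chaperones it was 0.263 and 0.080. The median range of the members over the 3 arrays was 0.340 in CSN8fl/fl and 0.144 in CSN8ΔIEC, and the median gap between CSN8fl/fl replicates 1 and 2 was 0.182, without the replicate 3 that stood apart. For the chaperones that gap was 0.357, since replicate 1 was high. This was noticed in the data, the difference in spread was not tested, and 3 arrays give a poor estimate of a spread.

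Outside the lists of ER genes, 18 measured genes carried an ERSE in the promoter window. Of these 5 had a difference above 0, 0 rose and 0 fell, and the median was −0.086.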
